A study of Mus musculus with 8 samples.

Results

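The 8 genes described here are regulators of endoplasmic reticulum (ER) stress and of secretion, and they were measured by RNA-seq in mouse knee cartilage. They were taken by symbol from the 50462 gene identifiers of the count table and fall into ER chaperones (Hspa5 and Hsp90b1), stress factors (Atf4, Atf6 and Ddit3) and regulators of collagen export (Creb3l1, Creb3l2 and Mia3). All 8 were detected in every library and passed the filter on low counts. A second identifier that carries the symbol Ddit3 had 0 counts in every library and was not used.

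The study compared medial knee cartilage of 4 naive and 4 DMM mice, with 1 library per mouse. All were wild-type C57Bl/6J males. Naive mice had no operation and were sampled at day 0, at 11 weeks of age. DMM mice had the medial meniscus of the left knee destabilised at 11 weeks by cutting its tibial ligament, a surgical model of osteoarthritis, and were sampled at day 42, at 17 weeks of age. Sham-operated mice were not analysed here, and effects of the operation cannot be told apart from those of the added age. Estimated counts summed to between 12479443 and 16548002 per library, and naive replicate 2 had fewer genes with 10 or more counts (16770) than the other 7 libraries (18245 to 19271).

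Secreted proteins are folded in the ER by chaperones and leave it in vesicles with a COPII coat. When unfolded protein builds up, sensors in the ER membrane start the unfolded protein response, in which ATF6 and XBP1 raise chaperone genes and ATF4 raises genes of amino acid supply and, with CHOP (the product of Ddit3), genes of cell death and recovery. Cartilage and bone cells export large amounts of collagen, whose precursor is too long for a standard COPII vesicle, and this export depends on MIA3 (TANGO1) at the ER exit site and on CREB3L1 (OASIS) and CREB3L2 (BBF2H7), transcription factors that are held in the ER membrane until they are cut free.

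The 3 regulators of collagen export were higher in DMM cartilage, whereas neither the chaperones nor the stress factors differed beyond the test's threshold. Creb3l1 rose 2.04-fold and was the 1 member of 8 called, which took both an adjusted p of at most 0.05 and a difference of at least 1.5-fold. Across all 17760 genes tested by DESeq2, 13.7% were called, 7.75% higher and 5.92% lower in DMM. Without the fold limit 3 members of 8 passed the adjusted p, all of them higher in DMM, against 22.6% of all genes in either direction and 11.4% higher. The groups did not overlap for 4 members (Creb3l1, Creb3l2, Mia3 and Atf6), all higher in DMM, against 22.2% of all genes in either direction and 11.9% higher.

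**Figure D1:**
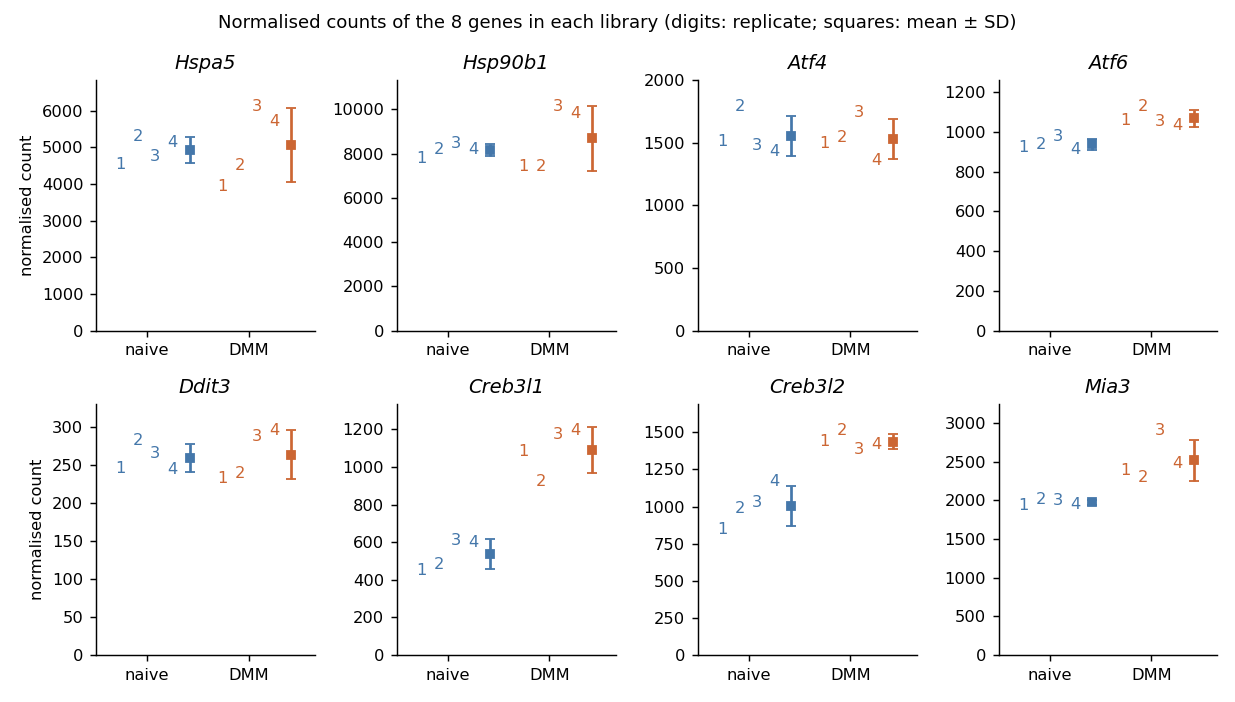
Each panel plots the normalised count of 1 gene (vertical axis, from 0) in the 4 naive and 4 DMM libraries, with digits for replicate numbers and squares with bars for the mean and SD. Creb3l1, Creb3l2, Mia3 and Atf6 show no overlap between groups, while Hspa5, Hsp90b1 and Ddit3 in DMM replicates 3 and 4 lie above replicates 1 and 2.

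Among the export regulators, Creb3l1 encodes a transcription factor that drives type I collagen production in osteoblasts. Its normalised counts were 451, 483, 611 and 599 in naive replicates 1 to 4 and 1079.8, 924.5, 1171 and 1191 in DMM replicates 1 to 4. The lowest DMM library lay well above the highest naive library. The naive mean was 536 ± 80.8 (SD, n = 4) and the DMM mean 1091.5 ± 121.5 (SD, n = 4), a log2 fold change of 1.03 (SE 0.14, 95% interval 0.75 to 1.31, adjusted p = 1.49e-10 in DESeq2). The gene was called with each of the 8 libraries left out in turn, and its adjusted p was 0.00277 in edgeR's quasi-likelihood test. A test of whether the change exceeded 1.5-fold gave an adjusted p of 0.229, so a fold beyond that limit was not established. Creb3l1 (ENSMUSG00000027230) lies on the reverse strand at chr2:91982328-92024502 (GRCm38).

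Creb3l2 encodes the related factor that in chondrocytes raises genes of the COPII coat. Its normalised counts were 843, 986, 1025 and 1171 in naive and 1440.5, 1509, 1385 and 1416 in DMM libraries. The 4 DMM libraries lay close together and above every naive library, of which replicate 4 was the highest. The log2 fold change was 0.52 (SE 0.12, 95% interval 0.29 to 0.74, adjusted p = 0.000214), a 1.43-fold difference that passed the adjusted p and stayed under the fold limit. Without naive replicate 4, or with the total count as size factor, the gene was called, at log2 fold changes of 0.60 and 0.67. Creb3l2 (ENSMUSG00000038648) lies on the reverse strand at chr6:37327255-37442146.

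Mia3 encodes the receptor that loads procollagen at ER exit sites. It had 1935, 2012, 1996 and 1949 normalised counts in naive and 2391, 2297, 2898 and 2482 in DMM libraries. The naive libraries were nearly level, and DMM replicate 3 stood highest. On the log2 scale the difference was 0.35 (SE 0.10, 95% interval 0.16 to 0.55, adjusted p = 0.00391), or 1.28-fold, again past the adjusted p and under the fold limit. Mia3 (ENSMUSG00000056050) lies on the reverse strand at chr1:183326725-183369553. Of its 6 transcripts in the GENCODE vM21 annotation, the widest covers 43.4% of the gene's span, so its length, and any level per length, is uncertain.

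Both chaperones were among the most abundant genes of the group and showed the same spread between DMM animals. Hspa5 encodes BiP, the main Hsp70 of the ER and a regulator of the stress sensors. Its normalised counts were 4545, 5304, 4752 and 5146.5 in naive and 3923, 4509.6, 6113 and 5709 in DMM libraries. The DMM values lay on both sides of the naive range, with replicates 1 and 2 below it and 3 and 4 above it. Its log2 fold change was 0.04 (SE 0.15, 95% interval -0.25 to 0.33, adjusted p = 0.902). Hsp90b1 encodes GRP94, the Hsp90 of the ER. It had 7781, 8187, 8436 and 8203 normalised counts in naive and 7414, 7436, 10126 and 9815 in DMM libraries, in the same order of replicates around the naive range as Hspa5. Its log2 fold change was 0.09 (SE 0.13, 95% interval -0.16 to 0.34, adjusted p = 0.676). The intervals leave out a change of 1.5-fold in either direction for both genes, but not a smaller one. Leaving out DMM replicate 3 or 4 turned the direction of Hspa5 (log2 fold changes of -0.07 and -0.02). Hspa5 (ENSMUSG00000026864) lies on the forward strand at chr2:34771970-34777547 and Hsp90b1 (ENSMUSG00000020048) on the reverse strand at chr10:86690209-86705509. Of the 31-base words in Hsp90b1 transcripts, 12.3% also occur in other genes, 8.3% in the overlapping pseudogene 1810014B01Rik on the other strand, which had a mean of 45.5 counts. The sources do not say whether reads were counted by strand.

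The promoters of both chaperones hold the letters of the ER stress response element, the site through which ATF6 and XBP1 raise chaperone genes. The element was searched as CCAAT and CCACG with 9 bases between them, on both strands, in the 250 bases before and 50 bases after the start site of RefSeq promoters (GRCm38.p6). It occurred in 0.119% of 32851 promoters. The matches are shown because this element is the classic mark of ER stress genes, with the fixed letters of the element in capitals, and the strand given is that of the gene.
Hspa5, chr2:34772020-34772048, forward strand, 65 bases before the start: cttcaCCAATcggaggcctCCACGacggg
Hsp90b1, chr10:86705633-86705661, reverse strand, 212 bases before the start: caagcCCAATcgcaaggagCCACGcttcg
Hsp90b1, chr10:86705528-86705556, reverse strand, 107 bases before the start, with the element in the opposite direction: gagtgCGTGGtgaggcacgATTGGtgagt
Of 24 other chaperone and folding genes with a promoter in the table, 6 held the same letters (Calr, Canx, Creld2, Dnajc3, Ero1b and Pdia6), and none of the 6 passed the adjusted p, with log2 fold changes from -0.18 for Canx to 0.19 for Creld2. A match of letters is not shown to be a bound site.

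None of the stress factors passed the threshold. Atf4 encodes the transcription factor that is translated when eIF2α is phosphorylated, so its transcript level is only part of its control. Its normalised counts were 1508, 1791, 1483 and 1432 in naive and 1493, 1543, 1744 and 1358 in DMM libraries. The ranges overlapped almost wholly, and the log2 fold change was -0.02 (SE 0.12, 95% interval -0.25 to 0.22, adjusted p = 0.947). Ddit3 had 246, 282, 265 and 244 normalised counts in naive and 232, 239.7, 287 and 295 in DMM libraries. As with the chaperones, DMM replicates 3 and 4 were above replicates 1 and 2. A log2 fold change of 0.03 (SE 0.14, 95% interval -0.25 to 0.30, adjusted p = 0.929) was measured for Ddit3. Atf4 (ENSMUSG00000042406) lies on the forward strand at chr15:80255184-80257541. Ddit3 (ENSMUSG00000025408) lies on the forward strand at chr10:127290774-127296288 and overlaps Mars on the other strand, with which it shares 2.2% of its 31-base words.

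Atf6, which encodes the ER membrane sensor that is cut in the Golgi to a transcription factor, differed little but regularly. It had 924, 937, 978 and 910.5 normalised counts in naive and 1056.5, 1128, 1054.5 and 1034 in DMM libraries. Each DMM library was above each naive library, and the spread within groups was the smallest of the stress factors relative to the mean. With a log2 fold change of 0.19 (SE 0.08, 95% interval 0.02 to 0.35), or 1.139-fold, it missed the threshold (adjusted p = 0.0934). The adjusted p was 0.0836 in edgeR, 0.0415 in DESeq2 with TMM factors and 0.00513 with the total count as size factor, and it was 0.302 with the replicate number as a block and 0.146 to 0.262 with a library left out. Atf6 (ENSMUSG00000026663) lies on the reverse strand at chr1:170704674-170867771.

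The size factors move all these values together. A single identifier without a symbol, ENSMUSG00000119584, held 10.1% to 17.9% of the counts in naive and 4.31% to 8.65% in DMM libraries, and it enters the total count and the denominator of the marker shares. With the total count as size factor the median log2 fold change, over genes averaging 10 counts or more, went from -0.01 to 0.14, and the share of calls that were higher in DMM went from 56.7% to 80.6%. All 8 members moved up by 0.15 to 0.16 with it, and the sign of Atf4, which was negative with median-of-ratios factors, was positive with edgeR (0.00), TMM factors (0.01) and the total count (0.14).

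**Figure D2:**
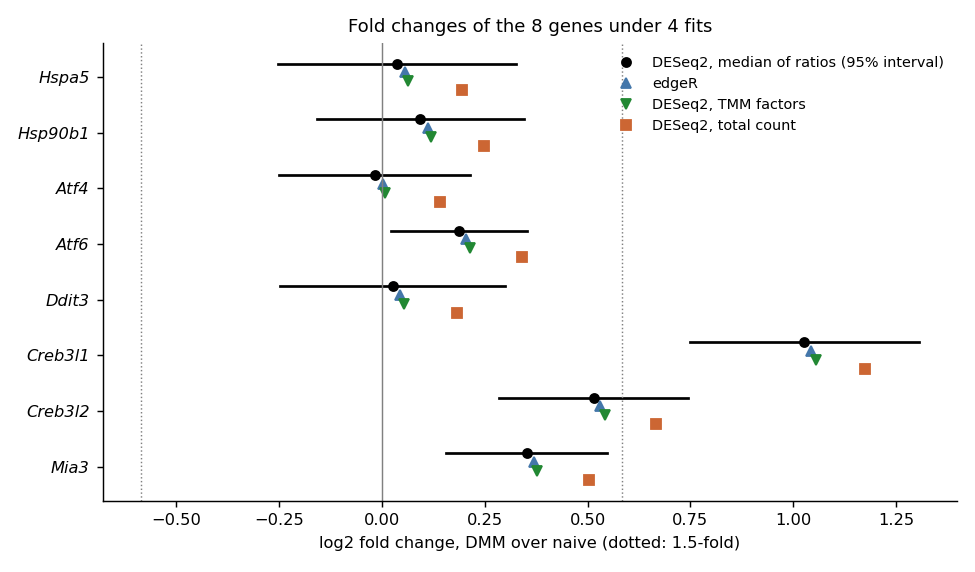
The log2 fold change of each gene, DMM over naive, is plotted on the horizontal axis under 4 fits, with the 95% interval of the DESeq2 fit as a line and dotted lines at 1.5-fold. Creb3l1 lies beyond 1.5-fold in all 4 fits, Creb3l2 only with the total count, and the total count places all 8 genes further to the right.

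Ratios of members within a library do not depend on size factors. They were compared for 4 pairs by a two-sided exact permutation test over the 70 assignments of libraries to groups, for which the smallest possible p is 0.0286. The log2 ratio of Creb3l1 to Creb3l2 was -0.90, -1.03, -0.75 and -0.97 in naive and -0.42, -0.71, -0.24 and -0.25 in DMM libraries. Creb3l1 thus differed more than Creb3l2, with a difference in mean log2 ratio of 0.51 (exact p = 0.0286, 0.0572 adjusted over the 4 pairs) and no overlap between groups. The log2 ratio of Mia3 to Mia2, which encodes its partner at the exit site, was 0.09, 0.29, 0.33 and 0.28 in naive and 0.87, 0.71, 0.88 and 0.65 in DMM libraries. These groups did not overlap either (difference 0.53, exact p = 0.0286, 0.0572 adjusted). Mia2 itself had 1818, 1648, 1591.5 and 1605.5 normalised counts in naive and 1307, 1401, 1571.5 and 1587 in DMM libraries, lower in each DMM library, at a log2 fold change of -0.18 that missed the threshold (adjusted p = 0.207). The ratio of Hsp90b1 to Hspa5 differed by 0.06 on the log2 scale (exact p = 0.343) and that of Ddit3 to Atf4 by 0.04 (exact p = 0.943), both with overlapping groups. With 2 of 4 pairs at the smallest possible p, the adjusted value cannot be lower than 0.0572.

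**Figure D3:**
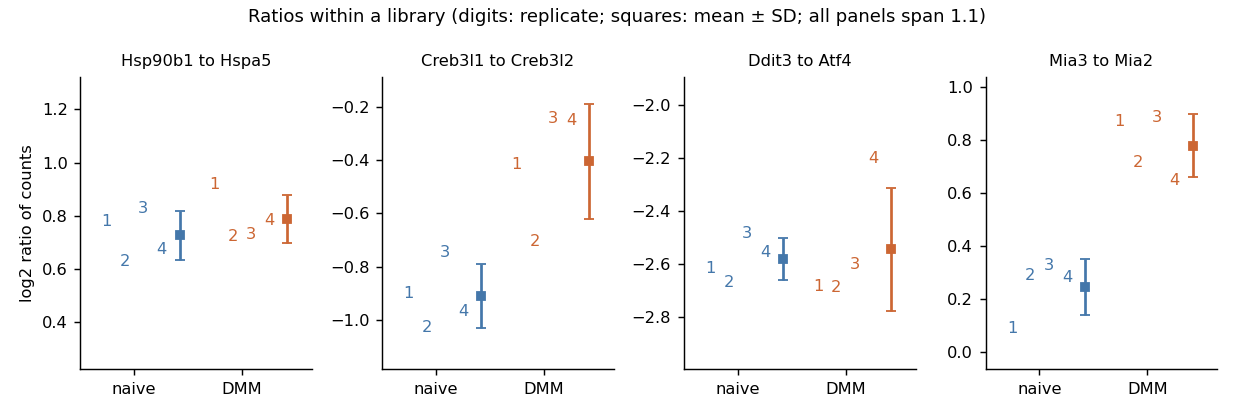
The log2 ratio of estimated counts within each library is plotted for 4 pairs, with digits for replicate numbers and squares with bars for the mean and SD. The ratios of Creb3l1 to Creb3l2 and of Mia3 to Mia2 do not overlap between naive and DMM, and the other two do.

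Per kilobase of the longest annotated transcript, the chaperones had the highest levels of the 8 genes and Atf6 the lowest. In naive libraries the mean normalised count per kilobase was 2530.0 ± 84.4 (SD, n = 4) for Hsp90b1, 1344.5 ± 95.2 for Hspa5, 769.5 ± 79.8 for Atf4 and 666 ± 12.4 for Mia3. Ddit3 (268 ± 18.5), Creb3l1 (206 ± 31), Creb3l2 (142 ± 19.0) and Atf6 (129 ± 4.0) followed. Of the neighbours in this order, Creb3l2 and Atf6 had overlapping ranges in naive cartilage. In DMM libraries Creb3l1 (419 ± 46.7) stood above Ddit3 (272 ± 33.2), and Mia3 (850.0 ± 89.4) stood above Atf4 (760.0 ± 79.3) with overlapping ranges. With the union of exons as length, 6 of 8 members kept their rank in naive and 4 of 8 in DMM, where Atf4 (651) was again above Mia3 (568) and Creb3l2 (197) above Ddit3 (154).

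**Figure D4:**
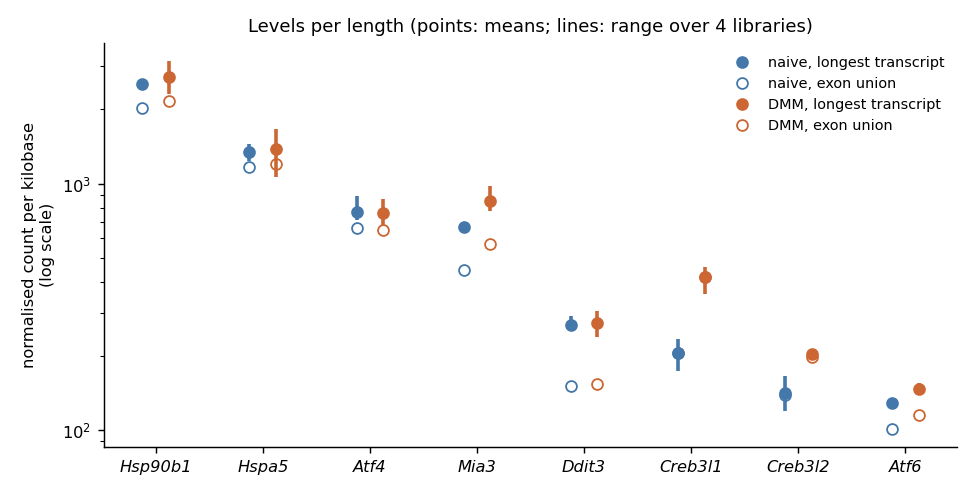
The mean normalised count per kilobase (log axis) is plotted for each gene in naive and DMM libraries, with lines for the range over 4 libraries at the longest transcript and open circles for the mean per kilobase of exon union. Hsp90b1 and Hspa5 are highest in both groups, and for Creb3l1, whose lengths coincide, the circles lie on the points.

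The other genes of the pathway were read from 7 lists in the same fit. Of 140 genes tested in the 6 lists other than collagens, 5 were called higher and 1 lower, with a median log2 fold change of 0.00 beside -0.02 over all genes. Over all genes 7.75% were called higher and 5.92% lower. Of the 140 genes, 21 passed the adjusted p, a smaller share than the 22.6% of all genes. Nupr1, Atf3, Sec24d, Sec16b and Tram2 were called higher and Ppp1r15a lower.

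No gene was called in the lists of chaperones, sensors and degradation. Of 27 chaperones and folding enzymes, 1 passed the adjusted p as higher and 1 as lower, and the median log2 fold change was 0.03. The former was Txndc5, a disulfide isomerase, with 857, 1056, 919 and 1043 normalised counts in naive and 1454, 1437, 1501.5 and 1143.5 in DMM libraries (log2 fold change 0.52, SE 0.13, adjusted p = 0.000662). No DMM library of Txndc5 fell into the naive range, while most of the list overlapped. None of 12 sensors and transducers was called (median 0.03). Mbtps1, the Golgi protease that cuts ATF6 and the CREB3L factors, had the smallest adjusted p, with 1487, 1499, 1487 and 1491 normalised counts in naive and 1926, 1959, 1879 and 1669.7 in DMM libraries (log2 fold change 0.32, SE 0.09, adjusted p = 0.00284). Xbp1, whose spliced form is a main output of the sensor IRE1, had a log2 fold change of 0.13 (SE 0.10, adjusted p = 0.407), and splicing was not read from gene counts. None of 17 genes of ER-associated degradation was called (median 0.00), with Sel1l, a scaffold of the ubiquitin ligase complex, at 0.21 (SE 0.08, adjusted p = 0.0433). The adjusted p of Sel1l was above 0.05 with each of the 8 libraries left out in turn. It was 0.0666 in edgeR and 0.00171 with the total count as size factor.

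Among 28 tested targets of ATF4 and CHOP, 2 were called higher, 1 lower, and 19 had a negative fold change (median -0.09). Over all 17760 genes tested, 7.75% were called higher, 5.92% lower, and 9181 had a negative fold change. With the total count as size factor the median of the list was 0.06, beside 0.14 over all genes. Nupr1, a stress-induced chromatin protein, had 418, 604, 716 and 793 normalised counts in naive and 1094, 1314, 1502 and 1157 in DMM libraries (log2 fold change 1.003, SE 0.19, adjusted p = 7.56e-06). Every DMM library exceeded every naive library, and the call held with each library left out. Atf3, a transcription factor of the early stress response, had 44.0, 74.5, 57.8 and 81.6 normalised counts in naive and 115, 86.0, 142 and 91.2 in DMM libraries (log2 fold change 0.76, SE 0.26, adjusted p = 0.0186). Its groups did not overlap by a small margin, and the call was lost without naive replicate 1 or 3 or DMM replicate 1 or 3 (adjusted p from 0.0715 to 0.0999). Ppp1r15a (GADD34), which leads a phosphatase to eIF2α, had 3046, 3274, 2262.5 and 1932 normalised counts in naive and 1267, 1281, 2066 and 1267 in DMM libraries (log2 fold change -0.84, SE 0.21, adjusted p = 0.000814). DMM replicate 3 stood apart and lay within the naive range. Trib3, a feedback inhibitor induced by CHOP, had at most 24.4 normalised counts in any library and a log2 fold change of 0.38 (SE 0.42, adjusted p = 0.593). Asns and Slc7a5, amino acid genes named after their values were seen, passed the adjusted p as lower, at -0.53 (adjusted p = 0.0167) and -0.56 (adjusted p = 0.0222). With a library left out, Asns passed in 4 of 8 fits and Slc7a5 in 3 of 8. Neither passed with the total count as size factor (adjusted p = 0.0899 and 0.0909).

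The letters TTGCATCA, a form of the C/EBP-ATF element bound by ATF4, occurred in either direction in 0.895% of all promoters. Counted by gene, 279 of 27025 genes with a promoter held them, and 5 of 25 such genes of the list of ATF4 and CHOP targets (Aars, Atf3, Chac1, Nupr1 and Slc7a11). The matches of the 2 genes called higher are shown with the element in capitals.
Nupr1, chr7:126625563-126625590, reverse strand, 110 bases before the start: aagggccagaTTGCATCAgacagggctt
Atf3, chr1:191183426-191183453, reverse strand, 110 bases before the start: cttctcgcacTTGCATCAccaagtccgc
Aars and Slc7a11 carry the same letters and had log2 fold changes of -0.21 (adjusted p = 0.200) and -0.39 (adjusted p = 0.0725), so the genes that hold the letters did not share 1 direction.

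Genes of the COPII coat and of procollagen exit, which act with Mia3, were the list with the most genes past the adjusted p, 9 of the 21 in the 6 lists. Of 26 tested, 2 were called higher and none lower, 8 passed the adjusted p as higher and 1 as lower, and 21 had a positive fold change (median 0.10). Groups did not overlap for 10 of the 26. Over all genes 7.75% were called higher, which is close to 2 of 26, 11.4% passed the adjusted p as higher and 22.2% had groups that did not overlap. A positive fold change was found for 8579 of all 17760 genes. With the total count as size factor the median of the list was 0.26, beside 0.14 over all genes. Sec24d, the cargo adaptor of the coat that procollagen export needs, had 536, 650.5, 714 and 744 normalised counts in naive and 959, 942, 1294 and 1118 in DMM libraries (log2 fold change 0.71, SE 0.15, adjusted p = 6.55e-05). The groups were apart and the call held with each library left out. Sec16b, a scaffold of exit sites, had 119.6, 170.3, 175.5 and 222 normalised counts in naive and 325, 247, 277 and 254 in DMM libraries (log2 fold change 0.69, SE 0.20, adjusted p = 0.0042). Without naive replicate 1, the lowest of them, its log2 fold change was 0.54 and it was not called. Other coat genes, named after their values were seen, were Sec31a of the outer coat (log2 fold change 0.58, just under the fold limit, adjusted p = 8.85e-06), Sec23a (0.47, adjusted p = 0.008), which with Sec24 forms the inner coat, Sec24a (0.46), Sar1a (0.42) and Sec16a (0.31). The coat genes Sec24b (0.14), Sec24c (0.08), Sec23b (-0.10), Sar1b (0.01), Sec13 (0.05) and Sec31b (0.48, at most 44.0 normalised counts) missed the threshold (adjusted p from 0.353 to 0.989). Klhl12, an adaptor of the ubiquitin ligase that enlarges COPII coats, was the 1 gene of the list that passed the adjusted p as lower (-0.42, adjusted p = 0.00793). Of 30 genes of translocation into the ER and signal peptide removal, 1 was called, Tram2, a translocon protein linked to collagen synthesis (log2 fold change 0.60, SE 0.13, adjusted p = 0.000154, median of the list -0.04). Its call was lost without naive replicate 1 or 2 or DMM replicate 2, at log2 fold changes of 0.55, 0.55 and 0.56.

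The letters TGACGTGG are the core of the unfolded protein response element, which is similar to sites bound by CREB3L factors. They occurred in either direction in 0.676% of all promoters. Counted by gene, 193 of 27025 genes with a promoter held them, and 4 of 24 such genes of the COPII list (Scfd1, Sec16b, Sec23a and Sec24d). Among these 4 are both called genes of the list and the inner coat gene Sec23a. Txndc5, the chaperone gene with the smallest adjusted p, holds the letters too, and so does Txndc11, with a log2 fold change of 0.21 (adjusted p = 0.376). In the degradation list Ube2j1 and Vcp hold them, with log2 fold changes of -0.0038 (adjusted p = 0.990) and -0.185 (adjusted p = 0.213). The matches are shown with the element in capitals.
Sec24d, chr3:123267460-123267487, forward strand, 26 bases before the start: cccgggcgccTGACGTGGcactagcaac
Sec16b, chr1:157506742-157506769, forward strand, 44 bases before the start: tctgtgtggcTGACGTGGcacggcagtt
Sec23a, chr12:59011994-59012021, reverse strand, 6 bases after the start: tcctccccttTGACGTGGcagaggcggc
Txndc5, chr13:38528035-38528062, reverse strand, 138 bases before the start: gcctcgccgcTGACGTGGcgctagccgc
Scfd1, chr12:51377535-51377562, forward strand, 32 bases after the start, with the element in the opposite direction: ggaggtagggCCACGTCAtcttcgggct
Scfd1, a factor of vesicle docking, had a log2 fold change of 0.07 (adjusted p = 0.752). Over all tested genes with a promoter in the table, 18 of 121 that held the letters were called higher (14.9%) and 6 lower (5.0%), beside 7.6% and 5.8% of 12287 genes with any promoter. The median log2 fold change was 0.08 for the former and -0.02 for the latter. The 121 include Sec24d, Sec16b, Sec23a and Txndc5, which are named above. For the element of the chaperones these values were 2 of 19 called higher, none lower and a median of 0.11. For the C/EBP-ATF letters, 10 of 101 genes were called higher (9.9%) and 8 lower (7.9%), with a median of -0.02. For the cAMP response element (TGACGTCA), also searched, 25 of 381 were called higher (6.6%) and 16 lower (4.2%), with a median of -0.02. These shares are descriptions of genes chosen by their letters, with no test. The promoters of Atf4, Ddit3, Creb3l2 and Mia3 held none of the 5 elements searched, and those of Atf6 and Creb3l1 were not searched here.

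All 10 collagens of the list, the cargo of this export, were called higher in DMM, with log2 fold changes from 0.77 to 2.02 and a median of 1.24. They are fibrillar and network collagens and the fibril-associated Col12a1. Over all genes tested 7.75% were called higher, and the list was chosen with earlier results of these data known. Col5a2 had 5099, 7777, 7152.5 and 7272.5 normalised counts in naive and 19052, 14853, 20733 and 14499 in DMM libraries (log2 fold change 1.34, SE 0.16, adjusted p = 3.61e-13). Col5a1 (1.48, adjusted p = 3.26e-09) and Col1a2 (1.22, adjusted p = 6.62e-09) followed by adjusted p. Of the 10 genes, 2 (Col2a1 and Col11a2) are also on the chondrocyte marker list. Col9a1, a fibril-associated cartilage collagen on that marker list alone, had a log2 fold change of -0.36 and missed the threshold. The log2 fold change of Creb3l1 lay within the collagen range, and those of Creb3l2, Mia3 and Sec24d lay below it.

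**Figure D5:**
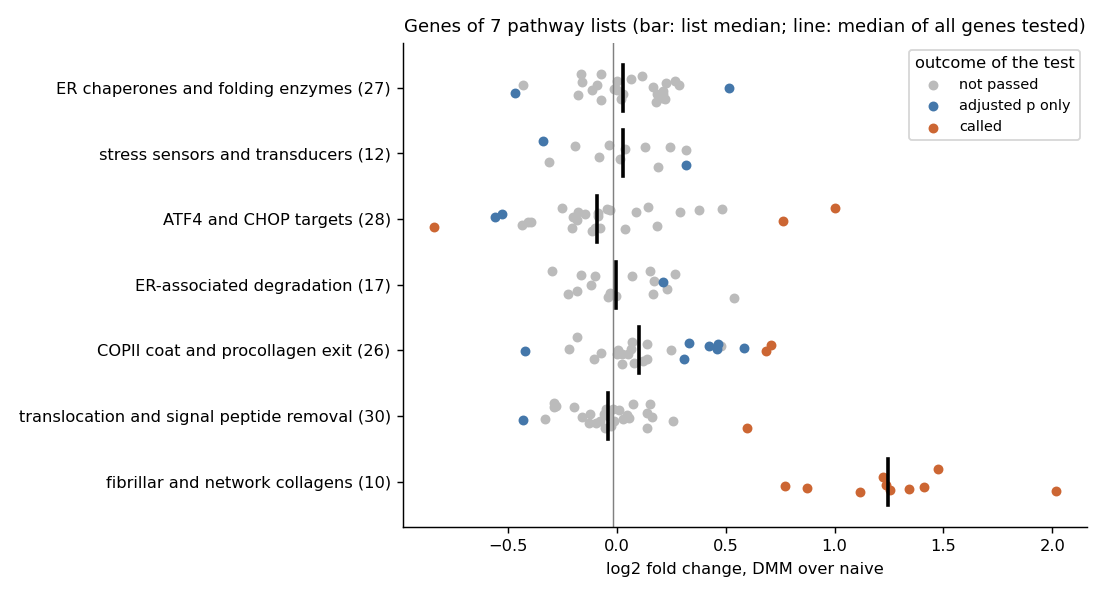
Each point is the log2 fold change, DMM over naive, of 1 gene in 7 pathway lists (number tested in parentheses), coloured by whether it was called, passed the adjusted p alone or did not pass, with black bars at list medians and a line at the median of all genes. The 10 collagens lie to the right of all other points but Nupr1, and the COPII list holds 9 of the 21 genes of the other 6 lists that passed the adjusted p.

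Markers of several cell types moved with the groups. The labels give the cell type as chondrocyte, and the summed share of 10 chondrocyte markers was 0.387% ± 0.064 (SD, n = 4) of counts in naive, with a range from 0.304% to 0.438%, and 0.962% ± 0.292 in DMM, with a range from 0.712% to 1.32% (two-sided exact permutation p = 0.0286, the smallest possible, for this and the next 3 lists). Of them 5 were called higher and none lower. The 10 osteoblast and osteocyte markers went from 0.141% to 0.210% in naive to 0.341% to 0.612% in DMM, with 8 called higher. The 10 neutrophil lineage markers went from 0.887% to 1.24% in naive down to 0.418% to 0.878% in DMM, with 10 called lower, and the 10 B and plasma cell markers from 0.0172% to 0.0250% up to 0.0305% to 0.0627%, with 2 called higher. Of 8 erythroid markers found, 7 were called lower, and their share ranged from 1.07% to 1.79% in naive and from 0.592% to 1.25% in DMM (exact p = 0.0857). For markers of macrophages, osteoclasts, synovial fibroblasts, endothelium and skeletal muscle the exact p was between 0.0571 and 0.714. In these lists 3 of 8 synovial fibroblast markers were called higher (Pdpn, Thy1 and Pdgfra, with log2 fold changes of 1.54, 1.05 and 0.62), while most of the summed share came from Prg4 (24672 to 96845 normalised counts per library, log2 fold change -0.54, adjusted p = 0.407). Pi16, also on the synovial fibroblast list, passed the adjusted p as lower and stayed under the fold limit (log2 fold change -0.35, adjusted p = 0.00966). Of the 8 endothelial markers 2 were called higher and 1 lower, 1 osteoclast and 1 skeletal muscle marker were called higher, and no macrophage marker was called. With counts of genes with a symbol as denominator the exact p went from 0.0571 to 0.6 for endothelial and from 0.114 to 0.943 for macrophage markers. Unlike those of the ratios, the exact p values of the marker lists were not adjusted for the number of lists. No marker was at 0 in all libraries. In bulk cartilage fewer cells of a type and less RNA per cell cannot be told apart. The part of these cell types in the higher Creb3l1, Creb3l2, Mia3, COPII and collagen values was not tested.

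The chondrocyte and neutrophil lineage markers also differed among DMM libraries. The chondrocyte share was 0.712%, 0.733%, 1.08% and 1.32% in DMM replicates 1 to 4, and the neutrophil lineage share 0.418%, 0.564%, 0.830% and 0.878%. Both were lower in replicates 1 and 2 than in 3 and 4, as Hspa5, Hsp90b1 and Ddit3 were. The osteoblast and osteocyte share (0.341%, 0.342%, 0.445% and 0.612%) and the erythroid share (0.632%, 0.592%, 1.25% and 0.645%) were also lower in replicates 1 and 2. The B and plasma cell share (0.0428%, 0.0627%, 0.0305% and 0.0337%) was higher in them, as were the endothelial and skeletal muscle shares. Whether any of these shares bears on the spread of Hspa5, Hsp90b1 and Ddit3 was not tested.

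The gene most like each member over the 8 libraries was sought among the other genes averaging 100 or more normalised counts (11039 genes with the members), by the root mean square difference of centred log2 values. The nearest to Hspa5 was Hspa13, an Hsp70-like protein of the ER (0.0519), to Hsp90b1 the disulfide isomerase gene Pdia3 (0.0452) and to Ddit3 the translocon gene Tram1 (0.0448). For Atf4 it was Ubqln4 (0.0407) and for Atf6 Pfkfb3 (0.0412), both with fold changes that missed the threshold. For the export regulators it was Grb10 (0.0622) for Creb3l1, Metrnl (0.0610) for Creb3l2 and Wipi1 (0.0550) for Mia3, with log2 fold changes of 1.04, 0.58 and 0.31. Since nearness was measured over the same 8 libraries, a fold change like that of the member follows from the choice. Among the members themselves, Hsp90b1 and Ddit3 were nearest to each other (0.0789), and the nearest member to Creb3l1 was Creb3l2, at 0.296.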

How the data were processed

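Estimated counts per gene were deposited for 8 libraries. The authors trimmed the reads, pseudo-aligned them with Kallisto and summed transcripts to genes with tximport, and 39.2% of the values were not whole. The labels and the methods name different library kits, and the genome build behind the counts is uncertain, since the sources name GRCh38, GRCm38 and an Ensembl release of a later assembly. Coordinates are from GENCODE vM21 (GRCm38), by gene identifier.

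Counts were rounded and tested with DESeq2 1.42.0 in R 4.3.3 by the Wald test over all 8 libraries, without covariates. Size factors (median of ratios) and filters were the defaults. The study's methods name DESeq2 and the Wald test for these libraries and do not state size factors, filters or covariates. At the same thresholds the study reports fewer genes than were called here. Calls needed an adjusted p (Benjamini-Hochberg, all genes) of at most 0.05 and a difference of at least 1.5-fold. Normalised counts are counts divided by size factors. Alternatives used edgeR 4.0.16 and limma 3.58.1, other size factors, filters and thresholds, a replicate block, and each library left out.

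Genes named were the members, the 3 called genes with the smallest adjusted p in each list (or the 1 smallest where none was called), Atf3, Xbp1, Ppp1r15a, Trib3, Mia2 and the nearest gene to each member. Members and lists were chosen with earlier results of these data known. Of the members, 6 of 8 matched a RefSeq promoter. Ero1a and Ero1b were matched through synonyms and the marker Ahsp was not matched. Libraries are 1 per mouse. Intervals are for the log2 fold change between groups, from its standard error in DESeq2, and the SD gives the spread between mice.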

Additional observations from a re-analysis of the deposited data

Results flagged for a closer look

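In 5 of 78 groups of 4 libraries checked with Dixon's test, 1 library stood apart from the other 3, where chance gives about 3.9. Ppp1r15a had 2066 normalised counts in DMM replicate 3 and 1267 to 1281 in the other DMM libraries. The erythroid markers held 1.25% of counts in DMM replicate 3 and 0.592% to 0.645% in the others. Genes with 10 or more counts numbered 16770 in naive replicate 2 and 18276 to 18467 in the other naive libraries. Skeletal muscle markers held 0.00331% of counts in naive replicate 3 (0.000479% to 0.0009% in the others) and 0.00991% in DMM replicate 1 (0.000428% to 0.000981% in the others). None of the 8 members was among them.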

How the results depend on the processing

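Creb3l1 was called under every alternative except the test against a 1.5-fold null. The members called numbered 2 with the total count as size factor, 3 with no fold threshold and 0 against the 1.5-fold null, and 1 to 2 with a library left out. Genes of the 6 lists called went from 6 to 10, 21 and 0 under these 3 settings and to between 3 (without naive replicate 1) and 9 with a library left out, and the collagens from 10 to 2 against the 1.5-fold null. All genes called numbered 2429, and 4010 (1989 lower) with no fold threshold, 94 (80 higher, 14 lower) against the 1.5-fold null and 489 lower with the total count. Same-numbered libraries did not deviate together (correlations of 0.011, 0.08, -0.181 and 0.098), and the labels do not pair them. With the replicate number as a block 2081 genes were called, Creb3l1 among them, and the adjusted p of Atf3 became 0.0828. A sign-flip test of the block cannot pass 0.05 with 4 pairs, and it gave differences of 0.508 for Creb3l1 to Creb3l2 and 0.532 for Mia3 to Mia2 (exact p = 0.125 each). With a library left out these ranged from 0.454 to 0.609 and from 0.480 to 0.577, where the smallest possible exact p is 0.0571. Ratios of Ddit3 to Atf4 then ranged from -0.078 to 0.083. Signs turned for Hspa5 (without DMM replicate 3, -0.0657, or 4, -0.0237), Ddit3 (without naive replicate 4, -0.0033, DMM replicate 3, -0.0176, or 4, -0.0305) and Atf4 (edgeR, 0.0022, TMM factors, 0.0086, total count, 0.142, without naive replicate 2, 0.0574, or DMM replicate 4, 0.0391), none of them past the threshold in any setting. With a library left out Atf4 ranged from -0.0837 to 0.0574, Ddit3 from -0.0305 to 0.0836 and Hspa5 from -0.0657 to 0.142. With the exon union as length 4 of 8 members kept their rank in DMM. Causes were not tested.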
